A study of Bos taurus with 35 samples.

Results

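TBX15, TCF21 and ISL1 are 3 transcription factor genes whose messages are unequally present in fat taken from different places of the body. The genes were taken by their identifiers in the deposited tables, ENSBTAG00000007767 for TBX15, ENSBTAG00000021827 for TCF21 and ENSBTAG00000001241 for ISL1, and are 3 of the 24596 genes counted. RNA-seq read counts were examined in 34 libraries from Hanwoo cattle, the Korean beef breed that the labels write as Hanwoo/coreanae: 9 of omental fat (O), 8 of intramuscular fat (I), 9 of subcutaneous fat (S) and 8 of muscle. They came from 9 animals of 30 months for which the labels name no treatment or altered gene, labelled female (3), castrated male (3) and male (3), and the labels give libraries with the same replicate number to the same animal. The S and I samples were cut from the same rib section, whereas O came from beside the true stomach. Depot and place in the body therefore cannot be told apart. The study's text mentions muscle portions of that section but does not say where the muscle libraries came from. The intramuscular library of replicate 9 was not analysed here, and muscle has no replicate 7.

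TBX15 is a T-box factor that takes part in forming the skeleton, the skin pattern and skeletal muscle of the trunk and limbs. TCF21 is a basic helix-loop-helix factor of the mesoderm around the internal organs, where it acts in the development of the kidney, the lung and the outer layer of the heart. ISL1 is a LIM-homeodomain factor best known from motor neurons, the pancreas and the progenitors of the heart. Such genes are called positional because their pattern is laid down in the embryo and is often kept in adult mesenchymal tissue. In rodent and human fat the 3 genes are known for levels that differ between depots. The study measured these genes by qRT-PCR after finding them to differ in O, and so the comparisons of O with I, S or muscle below are descriptions with no test.

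The sequences below are the primers used for qRT-PCR of these genes, shown because the primer list that holds them also pairs each gene name with its identifier in the count tables. They are given 5′ to 3′, and nothing in them is marked.
TBX15 forward: ctgctcctttgacactcacgct
TBX15 reverse: aacatcctcctgcctgctttg
TCF21 forward: aacccgagagtgacctgaaagaa
TCF21 reverse: agggggaagcagagacagagag
ISL1 forward: acctgctatgccgctaaccc
ISL1 reverse: atgatgctccgcttcttatcctt
The primers were 20 to 23 bases long, with a GC content from 43.5% in the ISL1 reverse primer to 60% in the ISL1 forward primer. The 3 genes lie apart in the genome: in the RefSeq annotation of ARS-UCD2.0, a later build than that of the counts, the nearest protein-coding genes are WARS2 and SPAG17 for TBX15, EYA4 and TBPL1 for TCF21, and PELO and PARP8 for ISL1.

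Counts assigned to genes ran from 3726376 to 7184022 per library. FASN, the fatty acid synthase of fat cells, was at 222 CPM (counts per 1e6 gene counts) or more in every fat library and at no more than 126 in muscle, and TPM2, a tropomyosin of the contractile apparatus, was at 22406 CPM or more in muscle and at no more than 2023 in fat. All CPM values are scaled by TMM (trimmed mean of M-values) over the 34 libraries. Some libraries stood apart. The intramuscular library of replicate 5 had a median correlation of 0.879 with the other I libraries, against 0.946 to 0.968 for the rest, and the muscle library of replicate 8 had 0.924 against 0.946 to 0.975. The muscle library of replicate 4, labelled female, carried 53 to 252 counts in each of 5 genes that had at most 1 count in all other libraries labelled female, the fat libraries of replicate 4 included. This goes against its label and against its coming from the same animal as those fat libraries, so pairs of muscle with fat are also given without replicate 4. Tissues are mixtures of cells, and in every value below fewer cells of a type and less RNA per cell cannot be told apart.

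TBX15 was almost silent in omental fat and was read in every library of the other tissues. In O the 9 libraries had 0 to 3 counts with a median of 1, and 3 of them had 0. The 8 I libraries had 76 to 298 counts with a median of 231.5, the 9 S libraries 216 to 326 with a median of 263, and the 8 muscle libraries 133 to 1071 with a median of 517. The highest O library therefore lay far under the lowest library of any other tissue, and no O value overlapped theirs. As mean levels, TBX15 stood at 0.202 ± 0.190 CPM in O (SD, n = 9), 37.7 ± 13.1 in I (n = 8), 39.4 ± 6.97 in S (n = 9) and 176 ± 84.4 in muscle (n = 8).

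**Figure D1:**
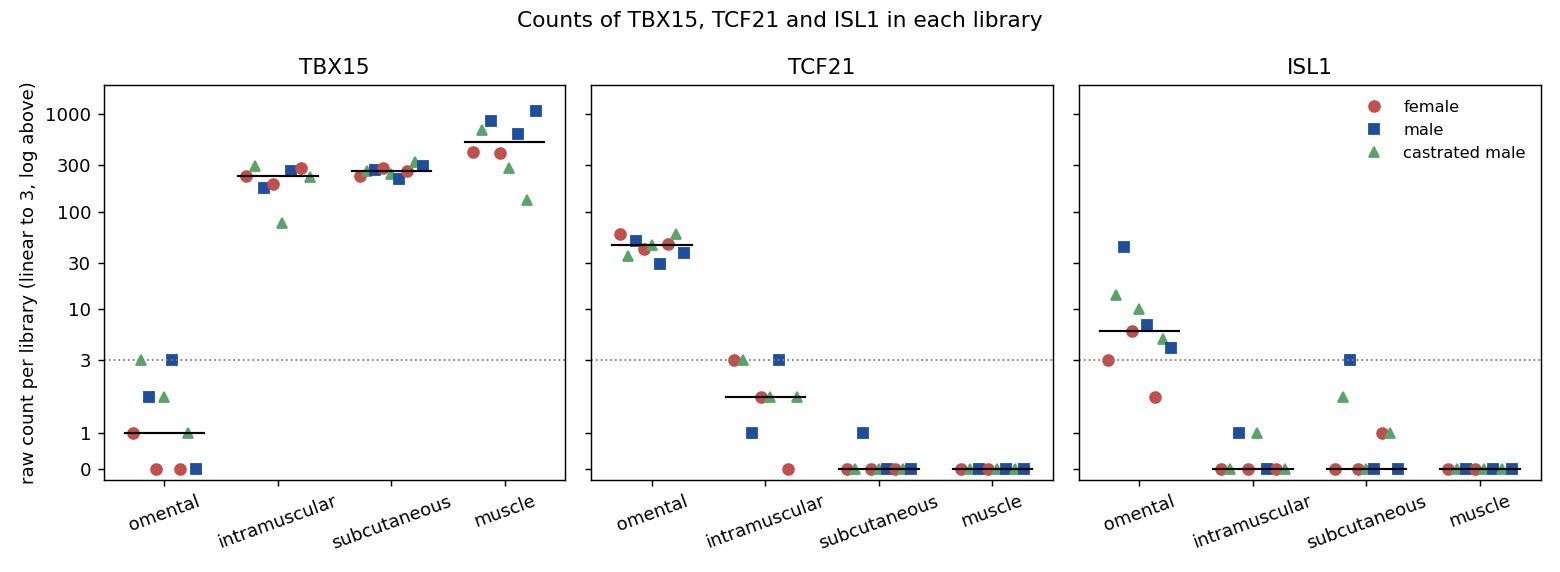
Raw count of each gene (vertical axis, linear to 3 and logarithmic above) in each of the 34 libraries by tissue, with color and shape for the sex label, black bars for medians and a dotted line at 3 counts. TBX15 lies at 0 to 3 counts in omental fat and at 76 or more elsewhere, whereas TCF21 lies at 29 to 60 counts in omental fat and at 3 or fewer elsewhere.

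The log2 fold change of TBX15 in O over I was -7.38 ± 0.40 (fitted value ± SE), a 166-fold difference, and TBX15 was lower in O in 8 of 8 animals with both depots. Against S the log2 fold change of O was -7.47 ± 0.29, and O was lower in 9 of 9 animals. Both comparisons share the O libraries. Groups that did not overlap were found in 8.94% of the genes with any count in the O against I comparison and in 0.906% in the O against S comparison.

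Between the intramuscular and the subcutaneous depot no difference in TBX15 was found. The log2 fold change of I over S was -0.07 ± 0.21, with a 95% interval from -0.48 to 0.34 (adjusted p = 0.811, edgeR quasi-likelihood test with Benjamini-Hochberg adjustment over all genes tested), while 32.7% of the genes that passed the count filter were called at a false discovery rate (FDR) under 0.01. TBX15 was higher in I in 4 of 8 animals and lower in the other 4. Without the I library of replicate 5, which had the lowest TBX15 value of the depot, the log2 fold change was 0.07 (adjusted p = 0.683).

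TBX15 was higher in muscle than in I and S. Muscle over I gave a log2 fold change of 2.25 ± 0.33 (adjusted p = 5.5e-06, edgeR), higher in muscle in 7 of 7 same-numbered pairs and in 6 of 6 without replicate 4, with 59.8% of tested genes called. Muscle over S gave 2.10 ± 0.26 (adjusted p = 4.1e-07), higher in 7 of 8 pairs and in 6 of 7 without replicate 4, with 62.7% called. The exception was replicate 8, whose muscle had 48.0 CPM and whose S had 52.3 CPM. Through this library the ranges overlapped, since I reached 50.8 CPM, and without it the log2 fold changes were 2.23 over I and 2.22 over S. As a description, the log2 fold change of muscle over O was 9.49 ± 0.46, without overlap, as in 25.5% of the genes with any count. With library size alone in place of TMM the muscle excess was smaller, at 1.39 over I, 1.14 over S and 8.57 over O on the log2 scale. The order of the levels was thus muscle, then S and I, which did not differ beyond their spread, and last O.

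**Figure D2:**
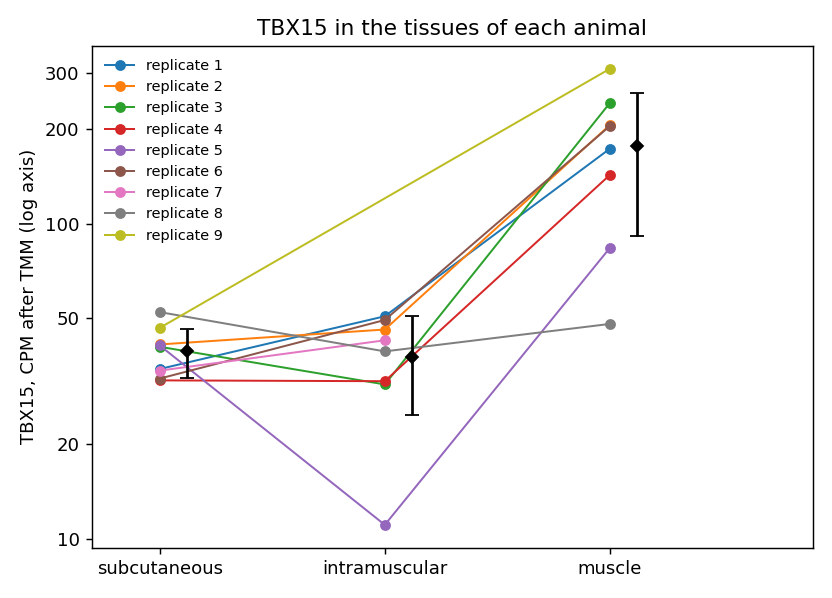
TBX15 level in CPM after TMM scaling (log axis) in subcutaneous fat, intramuscular fat and muscle, with a line joining the tissues of each replicate number (for replicate 4 the muscle library may be of another animal) and black diamonds and bars for the mean and SD. The fat depots overlap, and muscle is higher than the fats measured for each number with a muscle library except replicate 8, whose subcutaneous value is higher.

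**Figure D3:**
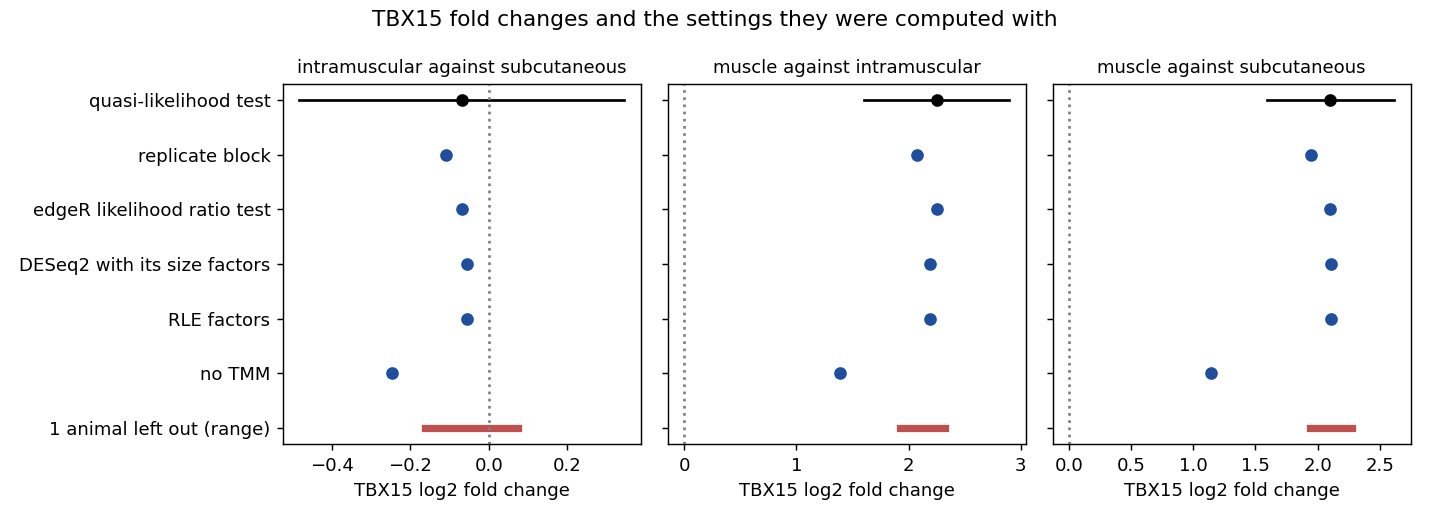
Log2 fold change of TBX15 in 3 comparisons under the quasi-likelihood test (black, with its 95% interval), under 5 other settings (blue) and as the range when each animal is left out (red bar), with a dotted line at 0. The muscle comparisons stay above 0 throughout, whereas the comparison of intramuscular with subcutaneous fat turns to 0.07 when replicate 5 is left out.

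Intramuscular fat is dissected out of muscle, and muscle messages were found in it. Among 162 genes whose muscle level exceeded that of both O and S by a factor of 100 or more, the median level in I beyond that of the other fats was 1.40% of the muscle level, and single I libraries ran from 0.137% to 2.28%. For TPM2 it was 3.95%. The TBX15 level of I was 21.4% of the muscle level, and that of S, a depot not embedded in muscle, was 22.4%. With library size alone in place of TMM these shares were 38.2% and 45.3%, and those of the 162 genes and of TPM2 were 2.38% and 6.76%. Replicate 5, with the lowest TBX15 in I at 11.1 CPM, had the highest muscle share of 2.28%. Replicates 3 and 4, with the next lowest TBX15 in I at 30.9 and 31.6 CPM, had the lowest shares, of 0.137% and 0.204%. The part of muscle RNA in the TBX15 value of I was not tested.

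The coefficient of variation of TBX15 between animals was 17.7% in S, 34.7% in I and 48.0% in muscle. Counting error, averaged over libraries from each library's own count, was 6.18%, 7.36% and 5.14%. Without replicate 5 the value of I was 19.4%, and the spreads were not tested against each other. An animal with more TBX15 in one tissue was not found to have more of it in another. Between I and S the Pearson r was -0.224 over 8 animals (exact permutation p = 0.599, Spearman rho -0.190), between I and muscle 0.383 over 7 pairs (exact p = 0.372, rho 0.179) and between S and muscle -0.352 over 8 pairs (exact p = 0.397, rho 0.0238). All were two-sided, and over these 3 relations the adjusted p was 0.595 to 0.599 for r and 0.977 for rho. With the 2 animals farthest from the median on the first tissue left out, r was -0.0403, 0.0282 and 0.195. Without the pair of replicate 4, r was 0.385 between I and muscle over 6 animals (exact permutation p = 0.45, rho 0.0857). Between S and muscle it was -0.435 over 7 animals (exact permutation p = 0.321, rho -0.0714), and both had an adjusted p of 0.599. With 2 further animals left out in the same way, r was 0.899 and 0.360, so that these values depend on which animals are included.

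In muscle, TBX15 was at 252 ± 53.7 CPM in animals labelled male (SD, n = 3), 112 ± 82.6 in castrated males (n = 3) and 158 ± 21.3 in the 2 libraries labelled female. This difference did not pass the test (adjusted p = 0.492, edgeR, with 0.00828% of genes called, 0.328 with the likelihood ratio test, which called 72 genes against 1, 0.213 with no count filter, which called 73, and 0.647 without the library of replicate 4, whose label is in doubt and which leaves 1 female library, assumed to vary like the others). In S the means were 33.5 ± 1.49 CPM in females, 39.8 ± 7.25 in males and 44.9 ± 6.45 in castrated males (n = 3 each), with an adjusted p of 0.620 and 0.0377% of genes called. In I they were 41.7 ± 9.63, 40.1 ± 13.1 (2 libraries) and 32.1 ± 18.6 in the same order, with an adjusted p of 0.983 and 0.0146% of genes called. With 2 or 3 libraries per sex label, these tests can find large differences only.

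TCF21 had the opposite pattern and was read in omental fat. The 9 O libraries had 60, 35, 50, 42, 46, 29, 47, 59 and 38 counts in the order of replicates 1 to 9, a mean of 6.99 ± 1.71 CPM (SD). The 8 I libraries had 3, 3, 1, 2, 2, 3, 0 and 2 counts, a mean of 0.352 ± 0.210 CPM. In S a single count was found over 9 libraries, in replicate 3, and in muscle none over 8 libraries. The O libraries therefore lay apart from all others. Of the genes with any count, 8.94% had groups without overlap in O against I, 0.906% in O against S and 25.5% in muscle against O. A trace was read in most I libraries, and S and muscle were at or under 3 counts over the whole group, the level taken here as the floor of detection. For muscle this floor is 0.121 CPM, and the exact 95% interval of 0 counts reaches 0.149 CPM.

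TCF21 was higher in O than in I by 4.29 ± 0.31 on the log2 scale (19.6-fold), in 8 of 8 animals. Against S the pooled counts were 406 and 1, a ratio of pooled CPM of 426 with an exact 95% interval from 76.1 to 16878, and O was higher in 9 of 9 animals. Such intervals cover counting error only, and reads without molecular identifiers are not independent molecules. TCF21 in O was at least 57.3-fold higher than in muscle, with muscle set at 3 counts over the group, and higher in 8 of 8 pairs and 7 of 7 without replicate 4. In the 9 omental libraries the coefficient of variation was 24.4%, against 15.3% from counting alone. Its level in O was 8.45 ± 1.82 CPM in females, 6.10 ± 1.12 in males and 6.42 ± 1.50 in castrated males (SD, n = 3 each), with no difference that passed the test (adjusted p = 0.999, edgeR, with 0.0372% of genes called).

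The trace of TCF21 in intramuscular fat was higher than in S and muscle in the test without the animal, and neither call held with the animal as a block. TCF21 missed the count filter in both comparisons and was read from the fit over all genes with any count. I and S held 16 and 1 counts, a ratio of pooled CPM of 20.6 (exact 95% interval 3.21 to 866), with I higher in 7 of 8 animals, of which replicate 3 had 1 count in both depots and differed by library size alone (adjusted p = 0.000596, edgeR, with 24.9% of these genes called). With the animal as a block the log2 fold change was 3.24 ± 0.87, against 3.33 ± 0.68 without it, and the adjusted p was 0.0142. Muscle held 0 counts, and the pooled I level lay 2.77-fold above the muscle floor of 3 counts over the group. The exact 95% interval of I began at 0.192 CPM, and that of muscle ended at 0.149 CPM. I was higher in 7 of 7 pairs and 6 of 6 without replicate 4 (adjusted p = 0.00354, edgeR, with 44.2% called). In the block the log2 fold change of muscle over I was -3.90 ± 1.45, against -3.74 ± 0.96 without it, and the adjusted p was 0.0388, or 0.0584 without the muscle library of replicate 4. These fitted values depend on the prior count, as muscle is at 0. DESeq2 gave an adjusted p of 0.0359, and leaving out replicate 2 or replicate 6 gave 0.0104 and 0.0103. The level was highest in O. I, S and muscle are given no order, since the difference of I from S and muscle rests on 0 to 3 counts per library and was called only in the fit without the animal. No fold is given between S and muscle, where both were under the floor.

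ISL1 was read at a low level in omental fat and hardly elsewhere. The 9 O libraries had 3, 14, 44, 6, 10, 7, 2, 5 and 4 counts in the order of replicates 1 to 9, a mean of 1.58 ± 1.86 CPM (SD). The I libraries of replicates 3 and 5 had 1 count each and the other 6 had 0, a mean of 0.0401 ± 0.0747 CPM. In S replicates 2, 3, 7 and 8 had 2, 3, 1 and 1 counts and the other 5 had 0, a mean of 0.118 ± 0.166 CPM. Muscle had 0 in all 8 libraries. The lowest O libraries, with 2 and 3 counts, were at the level of the highest S libraries, and ISL1 thus lacked the clean separation of TBX15 and TCF21 between O and S.

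ISL1 in O was higher than in S by 3.59 ± 0.70 on the log2 scale, in 9 of 9 animals, although the groups overlapped. The O libraries of replicates 1 and 7 held 3 and 2 counts, not above the floor, where S held 0 and 1. Both also enter the animals compared with I, and replicate 1 enters the pairs with muscle. Against I the pooled counts were 95 and 2, a ratio of pooled CPM of 38.7 (exact 95% interval 10.4 to 324), with O higher in 8 of 8 animals. This ratio was 67.9 without replicate 5, which held 1 of the 2 counts of I. ISL1 in O was at least 13.4-fold higher than in muscle, with the floor set in the same way, in 8 of 8 pairs and 7 of 7 without replicate 4. Without the O library of replicate 3 this bound was 8.16-fold. No difference was found between I and S (log2 fold change -1.14 ± 0.88, adjusted p = 0.315) or between muscle and S, with 0 and 7 counts (adjusted p = 0.0835, edgeR, with 47.5% of genes with any count called). The order of the levels was O first, and S, I and muscle could not be ranked at this depth. ISL1 missed the count filter in every comparison.

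The coefficient of variation of ISL1 over the 9 omental libraries was 118%. Counting error, averaged over libraries from each library's own count, was 44.6%. The libraries with few counts raise that average, so it overstates the spread that counting gives around the group mean. Replicate 3, an animal labelled male, held 44 of the 95 counts, and without it the coefficient of variation was 56.9% and the mean 0.980 CPM. By sex label the omental means were 2.73 ± 3.14 CPM in males, 1.35 ± 0.674 in castrated males and 0.650 ± 0.431 in females (SD, n = 3 each), and no difference passed the test (adjusted p = 0.987, edgeR over all genes with any count). A difference of the sex effect between the 3 fat depots, with the animal as a block, was not found for TBX15 (adjusted p = 0.624, edgeR) or TCF21 (adjusted p = 0.798). In that test 0% of 13543 genes were called, 1256 had an unadjusted p under 0.05, and the likelihood ratio test called 32.

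Few genes had patterns as sharp as those of TBX15 and TCF21. Of 20273 genes with any count, 1 had at most 3 counts in all 9 omental libraries and at least 50 in all 25 others, and this was TBX15. At least 20 counts in every omental library and at most 3 in every other were found in 4 genes, of which TCF21 was 1. ISL1 met neither rule, with as few as 2 counts in O. These count limits were chosen after the values had been seen and describe the genes only.

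**Figure D4:**
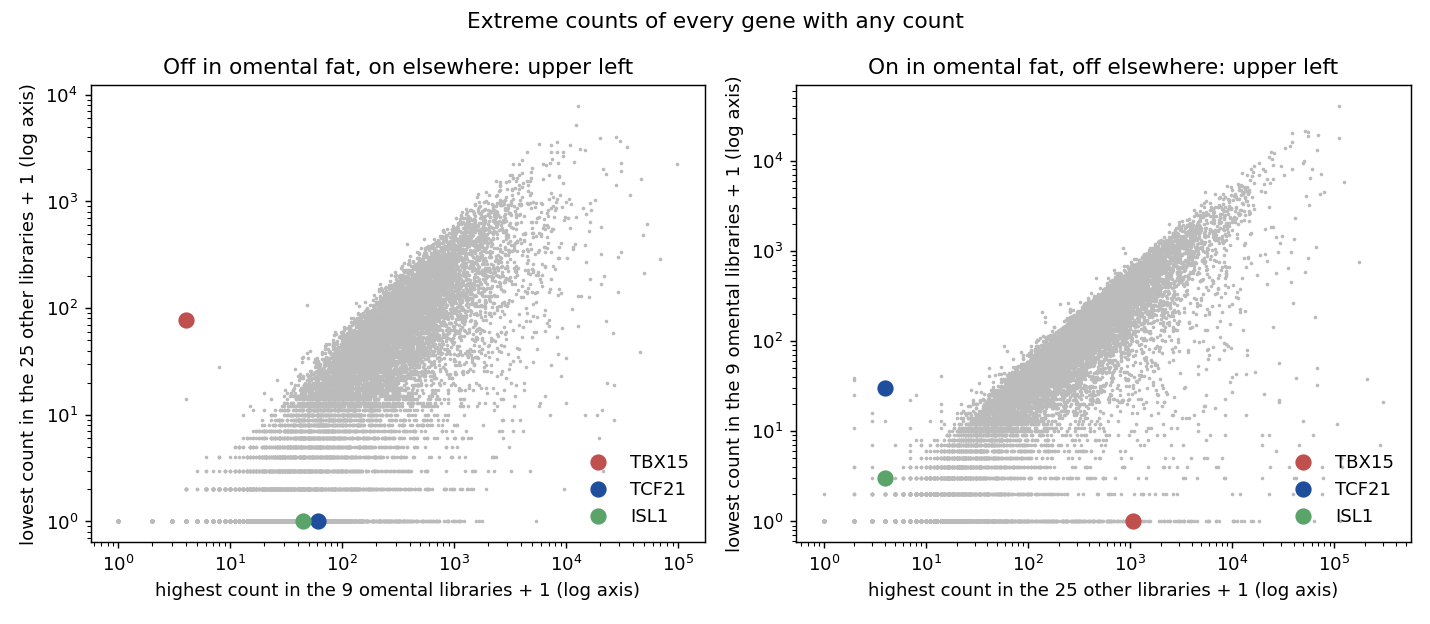
Each gray point is 1 of 20273 genes with any count, on log axes of count + 1. On the left the lowest count in the 25 other libraries is set against the highest count in omental fat, and on the right the lowest count in omental fat is set against the highest count elsewhere. TBX15 lies alone at the upper left of the left panel (highest 3 in omental fat, lowest 76 elsewhere), and TCF21 at the upper left of the right panel (lowest 29 in omental fat, highest 3 elsewhere).

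The genes whose log2 CPM followed each member most closely were sought among 13723 genes over the 34 libraries. For TBX15 the highest Pearson r were 0.948, 0.943 and 0.922, for TCF21 0.972, 0.952 and 0.950, and for ISL1 0.911, 0.894 and 0.890. ENSBTAG00000003278, nearest to TBX15, had at most 3 counts in every O library, 29 to 67 in I, 13 to 95 in S and 75 to 348 in muscle. ENSBTAG00000010896, nearest to TCF21, had 38 to 72 counts in O, at most 1 in I and 0 in S and muscle. ENSBTAG00000046511, nearest to ISL1, had 3 to 257 counts in O, at most 1 in I and 0 in S and muscle. The libraries share tissues and animals, and the correlations are given as a description. Among the 24 genes that passed the filter and have a name in the primer list, ZIC1 was nearest to TBX15 (r = 0.793), and MMP9, a secreted protease, was nearest to TCF21 (r = 0.718) and ISL1 (r = 0.708).

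The other 4 transcription factor genes of the primer list were also chosen by the study on these samples, ZIC1 for a low level in O and EN1, TBX5 and LHX8 for a high level in S, so that comparisons with the depot a gene was chosen for are given without a test. ZIC1, a zinc finger factor of the dorsal embryo, came closest to TBX15. It had 0 counts in all O libraries, 11 to 45 in I, 0 to 31 in S and 72 to 267 in muscle. Like TBX15 it was higher in muscle than in I (log2 fold change 3.44 ± 0.34, adjusted p = 3.1e-08, edgeR) and in S (4.71 ± 0.56, adjusted p = 2.1e-07). Unlike TBX15, it fell to 0 in 2 S libraries. Between I and S it did not pass the test (1.36 ± 0.57, adjusted p = 0.0588).

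EN1, a homeobox factor of the ventral limb and the hindbrain border, had 119 to 244 counts in S, and ran from 4 to 49 in O, from 5 to 42 in I and from 10 to 25 in muscle. Its log2 fold change was -2.48 ± 0.27 in I over S and -2.27 ± 0.19 in muscle over S. TBX5, a T-box factor of the forelimb and heart, had 3 to 22 counts in S and 0 to 2 elsewhere. Its log2 fold change in I over S was -4.52 ± 0.63. LHX8, a LIM-homeobox factor of the forebrain and jaw, had 5 to 41 counts in S, 0 to 15 in I and 0 in all O and muscle libraries. Its log2 fold change in I over S was -2.22 ± 0.68. That these genes were higher in S than in O and I follows from how they were chosen. Muscle was not among the tissues that the study compared. TBX5 and LHX8 belong to the gene families of TBX15 and ISL1.

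**Figure D5:**
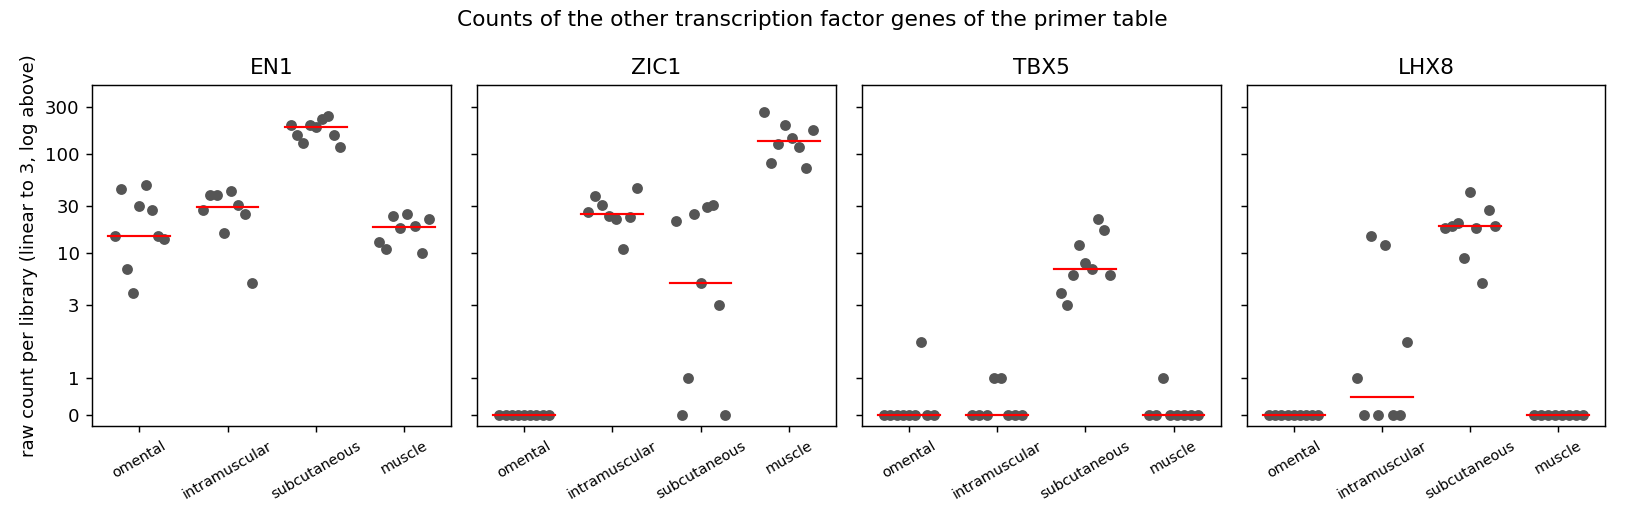
Raw count of EN1, ZIC1, TBX5 and LHX8 (vertical axis, linear to 3 and logarithmic above) in each library by tissue, with red bars for medians. ZIC1 lies at 0 in omental fat and is highest in muscle, whereas EN1, TBX5 and LHX8 are highest in subcutaneous fat.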

How the data were processed

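The authors aligned paired-end reads to bosTau6 with TopHat2 2.0.2, took read numbers for each Ensembl gene from HTSeq 0.5.3p3, and deposited 1 table of raw counts per library. The strand setting is not given in the sources used here, so antisense reads cannot be told apart. Lines that name no gene (5 per table) were left out, and 28.9% to 36.7% of a table's counts were on genes. Counts of each pair of tissues were fitted with edgeR 4.0.16 in R 4.3.3 (filterByExpr with a minimum count of 10, TMM, quasi-likelihood test, FDR under 0.01), the animal not being a term. No p is given where tissues are compared with the depot for which the study chose a gene. Genes missing the filter were read from a fit without it. Standard errors were derived as the absolute log2 fold change over the square root of the F statistic of the test. They are approximate where a group is near 0. Intervals of fold changes are 1.96 SE. A prior count of 2 was used for log2 CPM. The code was tested on simulated data.

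The study used edgeR's likelihood ratio test, which was tried as an alternative beside DESeq2 1.42.0, other scaling, other filters, a fit over the 4 tissues and leaving out each animal. Leaving out muscle replicates 4 and 8 and intramuscular replicate 5, leaving out muscle replicate 4 in the fit with the animal and in the correlations, leaving out single libraries for spreads and omental levels, and unscaled shares of the muscle level were added after seeing the data. Same-numbered libraries are paired by the animal number in the labels, which is in doubt for muscle replicate 4, and the median correlation of their deviations was 0.0350 to 0.386 over the 6 comparisons. The closest pair of libraries of a tissue differed by 12.0 in chi-square per degree of freedom, beyond sampling noise. The labels give sexes, whereas the study's text speaks of steers.

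The members, the lists and the tests were chosen with earlier results of these data known. Genes given with values are the 3 members and their nearest genes. Only the 31 genes of the primer list have names paired with identifiers here. From that list its other transcription factors, FASN and TPM2 were added. Lists of positional factors and cell type markers known by symbol were not used here.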

Additional observations from a re-analysis of the deposited data

Results flagged for a closer look

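Of 10 groups of libraries searched for a library far from the rest (chance marks about 1 in 20), 2 held one. ISL1 in omental replicate 3 stood at 6.34 CPM (44 counts), and its gap to the next library was 0.713 of the range of the 9 libraries, against a critical value of 0.493. TCF21 in subcutaneous replicate 3 stood at 0.150 CPM, a single count where the other 8 libraries had 0. Any lone count among zeros is marked by this rule, so the chance rate does not hold there and nothing is drawn from this mark.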

How the results depend on the processing

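Over 36 results and 323 alternatives, 314 kept their direction and their side of the threshold (or stayed within the spread). The log2 fold change of TBX15 in I over S, never called, ran from -0.162 to 0.0734 when each animal was left out, with 0.0734 without replicate 5 and 0.0694 without its I library alone. TCF21 lost its call in I against S with the replicate block (adjusted p = 0.0142, edgeR), and in muscle against I with the block (0.0388, and 0.0584 with the block and without muscle replicate 4) and with DESeq2 (0.0359), and ran from 0.0011 to 0.0104 when libraries were left out. The block changed no other call of the members. Without TMM the mean TBX15 level was 104 CPM in muscle, against 176, and 47.4 CPM in S. The cause was not tested in any of these. Without TMM the median log2 fold change over the genes that passed the filter moved from -0.06 to -0.97 in muscle against O, from -0.00 to -0.79 against I, from -0.04 to -0.94 against S, from -0.02 to -0.20 in I against S and from 0.02 to 0.22 in O against I, so TBX15 still stood above the median in each muscle comparison. Higher and lower calls in I against S then went from 2295 and 1985 to 1733 and 3142. O against S called 430 genes, against 743 with the likelihood ratio test, 814 with DESeq2, 1067 with the block and 271 without replicate 5 or 9. Depth limits TCF21 outside O and ISL1 everywhere: at 0 to 3 counts per library, an order of I, S and muscle could not be set for them. Leaving out muscle replicate 4 or 8 changed no call of the members.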
